A study of Homo sapiens with 8 samples.

Results

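HT29 and SW480, a pair of human colorectal adenocarcinoma lines that are grown worldwide as models of the disease, were compared here at baseline in serum. The comparison sets SW480 cells carrying an empty vector against HT29 parental cells, 2 arrays each, and so uses 4 of the 8 arrays of the series. Each RNA sample was read on an Affymetrix array of 54675 probe sets. All 41091 probe sets that name 1 gene were considered, and each of the 19775 genes was represented by its probe set with the highest mean over the 8 arrays. The series was made to study a regulator of the epithelial-to-mesenchymal transition in colon cancer.

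The HT29 parental cells were unmodified and grew in DMEM with 10% fetal bovine serum. The SW480 vector cells were a stable line made with a control vector, grown in high-glucose DMEM with the same share of serum. Only the SW480 arrays therefore came from cells that had taken up a vector, and only their DMEM was named as high-glucose. Line, vector and any difference in medium cannot be told apart in this comparison. The labels do not say whether the stable line was 1 clone. The other 4 arrays hold HT29 spheres, kept in serum-free DMEM-F12 that contained N2 and the growth factors EGF and bFGF (10 ng/ml of either one), and a stable SW480 line labelled as expressing Snail, in serum. They give a second, separate pair of HT29 and SW480 arrays, in which medium, growth form and construct also differ. Nothing in the labels says that the arrays of a group were separate cultures, so the spread between them, and every p-value built on it, may be technical.

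Colon epithelium is a sheet of polarised cells held together by E-cadherin junctions, desmosomes and tight junctions, and it renews itself from crypt stem cells that depend on Wnt signals and mature into absorptive or mucus-secreting cells. In the epithelial-to-mesenchymal transition, repressors of the Snail and ZEB families bind E-box sequences in the promoters of epithelial genes, junction genes fall and intermediate filaments such as vimentin rise. Colon cancer lines keep parts of both programmes in different mixtures. HT29 is known for its capacity to form enterocyte-like and mucus-secreting cells, and SW480 for a less differentiated form.

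Values are log2 expression, so a step of 1 is a 2-fold change. The gap of a gene is the SW480 vector mean minus the HT29 parental mean, given ± SE from limma, and group means are given ± SD over 2 arrays. That SE and its p-value use 1 estimate of spread per gene, shared by all 8 arrays. Array medians lay between 5.5 and 5.61, and a mean below all of them is called dim here, because no measure of detection was used and such a value may be background. Replicate arrays correlated at 0.991 in HT29 and 0.995 in SW480 over all genes, with 200 and 19 genes at least 2-fold apart. Between the HT29 sphere replicates 13 genes were that far apart, and between the SW480 Snail replicates 10. The shared SE may thus be too small for genes that varied between the HT29 parental arrays. Between the lines the 4 pairings gave 0.890 to 0.902, with 3599 to 4083 genes at least 2-fold apart. Of the hybridisation controls, the BioC spike-in read 8.39 in HT29 and 9.99 in SW480 at its 3′ probe set, a gap of 1.60, while the BioB probe sets differed by at most 0.26. Controls along 1 transcript also differed: actin had gaps of 0.80 at its 5′ and 0.33 at its 3′ probe set, and GAPDH of 0.25 and 0.20. The part of these control gaps in the results was not tested. SNAI1, the gene of Snail, read 6.32 and 6.38 in the SW480 arrays labelled Snail and 6.36 and 6.34 in the vector arrays, so its probe set does not mark the label.

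The lines differed across much of the measured transcriptome. At an adjusted p under 0.05 in limma, 9116 of 19775 genes (46.1%) were called: 4478 (22.6%) were higher in SW480 and 4638 (23.5%) higher in HT29. With a gap of at least 2-fold as well, 1448 genes (7.32%) were higher in SW480 and 2287 (11.6%) in HT29. Under the alternative settings that left out no compared array, these counts ranged from 1135 to 1762 and from 1648 to 2287. The count toward HT29 given here is thus at the top of its range. The arrays of the lines did not overlap for 14271 genes (72.2%). The median gap over all genes was 0.07 and the median size of a gap 0.36. In these bulk samples, fewer cells expressing a gene and less RNA per cell cannot be told apart. With 2 arrays on each side, the smallest two-sided p of an exact permutation test is 0.333, so single genes rest on the limma fit. The plot of group means shows how far the named genes lie from the bulk.

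**Figure D1:**
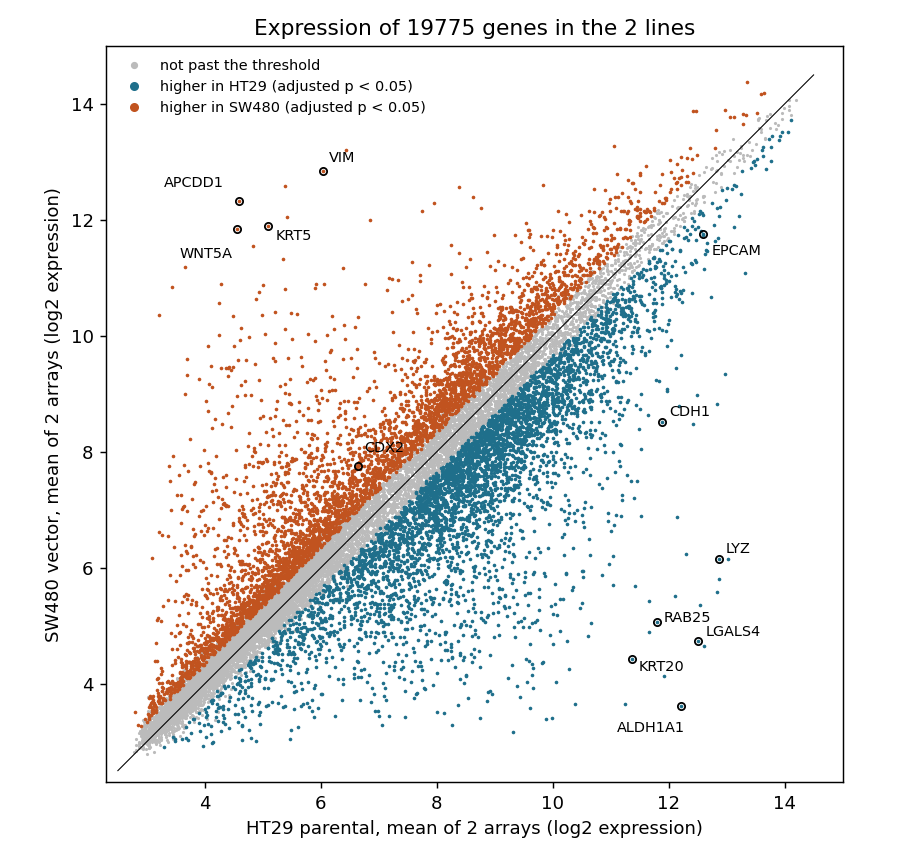
Mean log2 expression of 19775 genes in HT29 parental cells (horizontal, 2 arrays) and SW480 vector cells (vertical, 2 arrays), with the diagonal of equal expression; orange points were higher in SW480, blue points higher in HT29 and grey points not past the threshold. VIM, at 6.03 in HT29 and 12.84 in SW480, lies far above the diagonal, ALDH1A1, at 12.21 and 3.62, far below it, and EPCAM, at 12.59 and 11.75, close to it.

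The genes with the largest gaps toward SW480 were the Wnt antagonist APCDD1, the tubulin TUBB6, the fatty acid elongase ELOVL5 and the Wnt ligand WNT5A. APCDD1, a membrane glycoprotein that inhibits Wnt signalling, read 4.89 and 4.30 in the HT29 arrays and 12.35 and 12.29 in the SW480 arrays, a gap of 7.72 ± 0.18 (adjusted p = 8.83e-10). WNT5A, a ligand of beta-catenin-independent Wnt signalling, read 4.54 and 4.58 against 11.78 and 11.89, a gap of 7.28 ± 0.12 (adjusted p = 2.92e-10). Both were dim in HT29 and far above the array medians in SW480. TUBB6, a beta-tubulin, had a gap of 7.54 ± 0.18, and ELOVL5, which lengthens polyunsaturated fatty acids, 7.41 ± 0.18. The neurotrophin receptor partner BEX3 (7.21 ± 0.12) and the claudin-like membrane protein TMEM47 (7.14 ± 0.15) followed. VIM, the gene of vimentin, read 6.15 and 5.91 in HT29 and 12.88 and 12.81 in SW480, a gap of 6.81 ± 0.14 (adjusted p = 4.09e-10). The basal-cell keratin KRT5 was as far apart, at 5.22 and 4.97 against 11.94 and 11.86 (6.81 ± 0.14). PRF1, the pore-forming perforin of cytotoxic lymphocytes, was the brightest of the 12 in SW480, at 13.17 and 13.23 against 6.58 and 6.29 (6.76 ± 0.14). The lymphocyte markers CD3D, CD3E and PTPRC did not pass the threshold, with gaps of -0.05, 0.31 and 0.05. The source of the PRF1 signal was not tested. The cystatin CST1 (6.72 ± 0.13), the homeobox factor MSX1 (6.63 ± 0.17) and the neuropeptide gene GAL (6.61 ± 0.23) complete the 12 largest. In 10 of these 12 the HT29 mean was dim, so their folds rest on a level that may be background.

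The genes with the largest gaps toward HT29 were ALDH1A1, AGR2, LGALS4 and AKR1C3. ALDH1A1, which oxidises retinaldehyde to retinoic acid, read 11.94 and 12.49 in the HT29 arrays and 3.71 and 3.53 in the SW480 arrays, a gap of -8.59 ± 0.17 (adjusted p = 4.09e-10) and the largest of all genes. AGR2, a disulfide isomerase of mucus-secreting cells, read 12.72 and 12.49 against 4.50 and 4.79 (-7.96 ± 0.17). LGALS4, a galectin of the gut lining, read 12.47 and 12.55 against 5.05 and 4.41 (-7.78 ± 0.21). Each was bright in both HT29 arrays and dim in both SW480 arrays. The steroid and prostaglandin reductase AKR1C3 (-7.78 ± 0.27) and the trypsin inhibitor SPINK1 (-7.60 ± 0.16) had gaps of like size. The membrane proteins TSPAN8 (-7.25 ± 0.16) and TM4SF4 (-7.18 ± 0.13) and the calcium-binding protein S100P (-7.06 ± 0.23) came next. KRT20, the keratin of mature intestinal cells, read 11.38 and 11.36 in HT29 and 4.74 and 4.11 in SW480 (-6.95 ± 0.20, adjusted p = 2.54e-09). GPX2, the glutathione peroxidase of the gastrointestinal tract, had a gap of -6.88 ± 0.13, the circadian repressor BHLHE41 -6.77 ± 0.13, and PROM1, the gene of the CD133 antigen, -6.73 ± 0.17. The SW480 mean was dim in 9 of these 12 genes. The plot of the largest gaps by array shows that replicate spread was small beside the gaps.

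**Figure D2:**
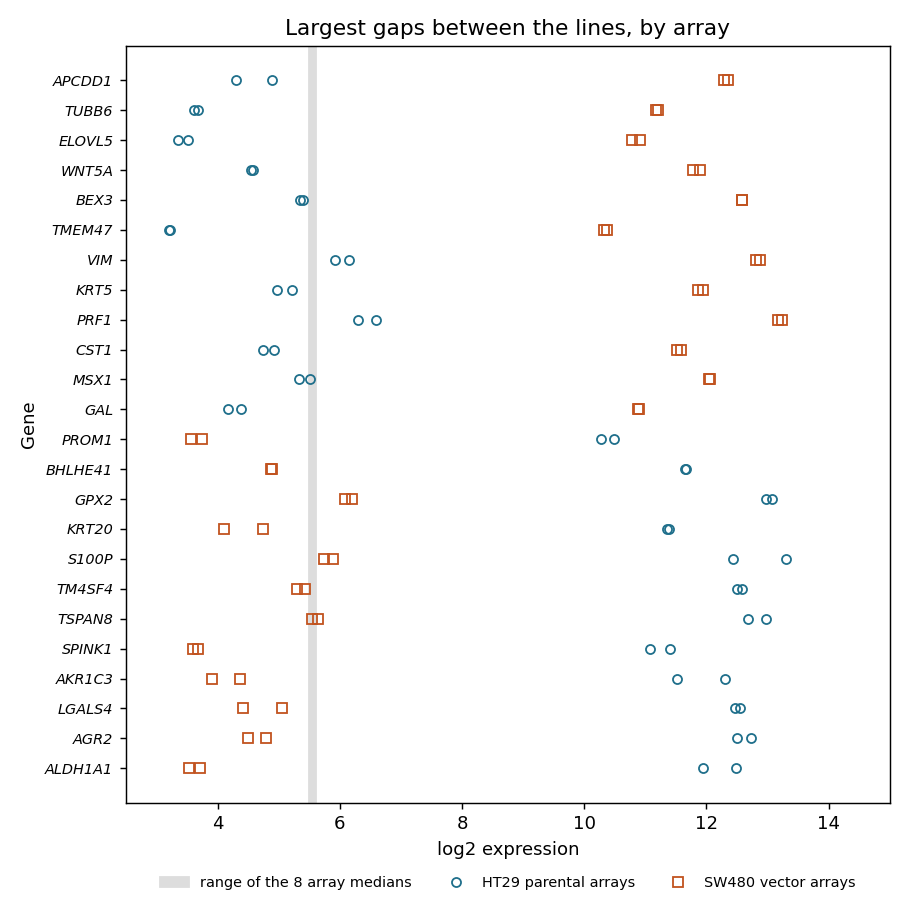
Log2 expression of the genes with the largest gaps, 12 in each direction, in each HT29 parental array (circles) and each SW480 vector array (squares); the grey band spans the 8 array medians, 5.5 to 5.61. Arrays of a line lie close together beside the gap of each gene, although S100P read 13.31 and 12.43 in the HT29 arrays. The lines are separated by between 6.61 (GAL) and 8.59 (ALDH1A1, in size) log2.

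Genes of epithelial identity were the most one-sided of the lists examined: all 29 measured epithelial regulators and surface proteases were higher in HT29, with a median gap of -2.50 against 0.07 over all genes. Of these, 26 were at least 2-fold higher. RAB25, a small GTPase of apical recycling in epithelia, read 11.72 and 11.87 in the HT29 arrays and 5.13 and 5.00 in the SW480 arrays (-6.73 ± 0.15, adjusted p = 6.62e-10). EHF, an epithelium-specific ETS factor, read 12.08 and 12.21 against 6.84 and 6.91 (-5.27 ± 0.13). PRSS8, the membrane protease prostasin, read 9.59 and 9.95 against 5.40 and 5.13 (-4.50 ± 0.16). None of these groups of arrays overlapped. The splicing factor ESRP1 (-3.96 ± 0.14), which sets epithelial exon choice, and the Grainyhead factor GRHL2 (-3.24 ± 0.14) differed in the same direction, as did ELF3 (-3.42 ± 0.25) and OVOL1 (-2.95). The smallest gap of the list was that of ARHGEF16, at -0.36. Under the 12 alternative settings 28 or 29 members were higher in HT29.

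Junction genes followed with smaller gaps. Of 34 measured members of the junction and adhesion list, 24 were higher in HT29, 5 higher in SW480 and 5 did not pass, with a median gap of -0.74. CDH1, the gene of E-cadherin, read 11.63 and 12.15 in HT29 and 8.43 and 8.60 in SW480, a gap of -3.38 ± 0.17 (adjusted p = 1.01e-07). It was thus lower in SW480 but well above the array medians in both arrays. The desmosomal cadherin DSC2 read 9.24 and 9.21 against 6.38 and 6.38 (-2.84 ± 0.12), and the tight junction scaffold TJP3 8.89 and 9.5 against 6.62 and 6.59 (-2.59 ± 0.19). Among claudins, which seal tight junctions, CLDN2 (-2.58), CLDN3 (-2.39), CLDN4 (-1.71), CLDN12 (-1.51) and CLDN1 (-1.15) were at least 2-fold higher in HT29. EPCAM, the epithelial cell adhesion molecule, differed less, at 12.57 and 12.61 against 11.73 and 11.77 (-0.84 ± 0.12, adjusted p = 2.54e-04). Higher in SW480 were the desmosomal plakophilin PKP2 (1.18 ± 0.15), the polarity scaffold PALS1 (0.82 ± 0.13), P-cadherin CDH3 (0.79 ± 0.29), CTNNB1 (0.55) and DSC3 (0.38). The count of 5 fell to 3 without SW480 vector replicate 1 and likewise without replicate 2. CDH3 lost its call without either of them (0.63 and 0.95) and without HT29 parental replicate 1 (0.23).

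The promoters of these genes are shown because Snail and ZEB factors are known to bind the E-box CAGGTG, or CACCTG on the other strand, there. The window searched was the 250 bases before each gene's annotated start in RefSeq, on GRCh38.p14, and the search covered both strands. Of the 53 members of the 2 epithelial lists that were higher in HT29, 36 had a promoter in the table and 18 of these (50%) held at least 1 E-box. The share was 16.8% over the 15384 tested genes with a promoter, 19.1% over genes at least 2-fold higher in HT29 and 16.7% over genes at least 2-fold higher in SW480. In the mesenchymal list, 1 of 11 promoters of members higher in SW480 held it (9.09%). Median GC content was 65.6% for the epithelial windows and 62.4% over tested genes. The CDX-type motif TTTATG, or CATAAA, was in 0 of the 36 epithelial windows and in 5 of 17 windows (29.4%) of secretory and brush border genes higher in HT29, beside 7.23% over tested genes. These matches describe letters in the windows, not binding. The lists were chosen with earlier results of these data known. No share was taken over epithelial list members not higher in HT29, so the 50% cannot be tied to the gap between the lines. RAB25, EHF and VIM are printed as list members with the largest gaps. TMEM30B, a subunit of lipid flippases, SH3YL1, a phosphoinositide-binding protein, and TMC4, a channel-like membrane protein, were chosen after their matches were seen, as windows with several E-boxes, and their gaps are not typical of such windows. Capitals mark the E-boxes, and each window reads 5′ to 3′ along the gene's own strand and ends at the base before the start.
RAB25 (chr1:156060910-156061159, plus strand): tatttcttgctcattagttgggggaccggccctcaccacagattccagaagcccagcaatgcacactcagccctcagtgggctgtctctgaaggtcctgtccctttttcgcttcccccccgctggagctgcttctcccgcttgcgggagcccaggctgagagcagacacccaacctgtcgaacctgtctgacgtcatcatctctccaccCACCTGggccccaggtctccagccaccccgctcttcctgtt
TMEM30B (chr14:61281339-61281588, minus strand): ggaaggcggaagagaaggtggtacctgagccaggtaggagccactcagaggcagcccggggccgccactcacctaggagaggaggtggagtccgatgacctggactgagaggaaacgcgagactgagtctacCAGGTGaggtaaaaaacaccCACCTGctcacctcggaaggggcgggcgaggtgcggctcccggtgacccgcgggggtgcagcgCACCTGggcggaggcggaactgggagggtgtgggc
SH3YL1 (chr2:264393-264642, minus strand): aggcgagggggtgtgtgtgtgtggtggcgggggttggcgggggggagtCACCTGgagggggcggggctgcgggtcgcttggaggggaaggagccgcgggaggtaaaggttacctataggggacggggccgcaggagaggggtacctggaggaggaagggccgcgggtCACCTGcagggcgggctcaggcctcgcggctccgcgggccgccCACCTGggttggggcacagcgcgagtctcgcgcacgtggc
TMC4 (chr19:54173161-54173410, minus strand): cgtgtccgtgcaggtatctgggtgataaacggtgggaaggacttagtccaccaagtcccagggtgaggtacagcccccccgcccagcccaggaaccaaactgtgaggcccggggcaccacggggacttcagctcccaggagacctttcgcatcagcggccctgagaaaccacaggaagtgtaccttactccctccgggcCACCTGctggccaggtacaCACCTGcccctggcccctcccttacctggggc
EHF (chr11:34624007-34624256, plus strand): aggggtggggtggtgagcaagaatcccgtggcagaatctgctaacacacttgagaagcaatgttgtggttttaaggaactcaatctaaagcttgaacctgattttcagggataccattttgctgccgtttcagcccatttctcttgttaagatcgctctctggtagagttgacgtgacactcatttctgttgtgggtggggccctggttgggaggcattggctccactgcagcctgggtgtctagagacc
VIM (chr10:17227991-17228240, plus strand): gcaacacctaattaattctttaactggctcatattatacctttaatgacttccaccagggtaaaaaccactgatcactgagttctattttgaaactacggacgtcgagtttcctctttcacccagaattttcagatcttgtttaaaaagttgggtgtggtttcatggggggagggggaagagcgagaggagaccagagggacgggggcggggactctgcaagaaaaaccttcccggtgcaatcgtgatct
RAB25 had 1 E-box, beginning 41 bases before the start, for a gap of -6.73. TMEM30B had 3, beginning 118, 98 and 35 bases before it, for a gap of -4.22 ± 0.19 (its other probe set gave 0.10). SH3YL1 had 3, at 202, 83 and 40 bases (-4.18 ± 0.17), and TMC4 had 2, at 51 and 32 bases (-3.50 ± 0.16). Other windows held as many E-boxes or more at smaller gaps: CRB3 had 5 (-0.65), ARHGEF16 3 (-0.36), MYO5B 3 (-1.45) and AP1M2 3 (-2.41). EHF had none in its window, at a gap of -5.27, and VIM, higher in SW480, had none.

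Mesenchymal genes differed in the opposite direction, but as a list less uniformly. Of 28 measured mesenchymal cytoskeleton and surface genes, 15 were higher in SW480, 4 higher in HT29 and 9 did not pass, with a median gap of 0.53. Beside VIM, the integrin activator FERMT2 read 3.71 and 3.69 in HT29 and 9.35 and 9.31 in SW480 (5.63 ± 0.13), and the RNA-binding protein QKI 4.28 and 4.53 against 9.39 and 9.51 (5.04 ± 0.18). The membrane protein EMP3 (4.92 ± 0.18) and the receptor kinase AXL (3.78 ± 0.15) were also higher in SW480. Tropomyosin TPM2 (-2.12 ± 0.16), calponin CNN3 (-1.69 ± 0.21) and the ectonucleotidase NT5E (-0.85 ± 0.15) were higher in HT29, although other probe sets of TPM2 and NT5E gave gaps of up to 0.83 and 1.37. N-cadherin CDH2 did not pass, with a gap of -0.12 ± 0.19.

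Of 12 measured transcription factors of the transition, 4 were higher in SW480, 2 higher in HT29 and 6 did not pass, and in 6 of the 12 both means were dim. SNAI2, the gene of Slug, read 4.11 and 3.29 in HT29 and 6.13 and 6.38 in SW480 (2.55 ± 0.28, adjusted p = 3.11e-05). ZEB1 read 5.18 and 4.80 against 6.68 and 6.57 (1.63 ± 0.15, adjusted p = 7.36e-06). TWIST2 (0.94 ± 0.16) and PRRX1 (0.50) were the others higher in SW480. SNAI1 itself did not pass, at 5.87 and 6.15 against 6.36 and 6.34 (0.34 ± 0.15, adjusted p = 0.0836). Without HT29 parental replicate 2 it was called, at a gap of 0.48. TCF3, which encodes E-box binding E proteins, was higher in HT29 (-1.41 ± 0.13), but the mean of its 14 probe sets had a gap of 0.10. SNAI3 (-1.20 ± 0.29) was no longer called without SW480 vector replicate 1. Leaving out the dimmest 40% of genes took SNAI2, ZEB1 and TWIST2 out of the test. The 0 members called higher in SW480 in that setting therefore say nothing about these 3 genes. Without SW480 vector replicate 1, 1 member was higher in HT29.

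Matrix genes split. Of 33 measured matrix and matricellular genes, 14 were higher in SW480, 6 higher in HT29 and 13 did not pass, and both means were dim in 12. The collagen cross-linking oxidase LOXL2 read 4.76 and 4.97 in HT29 and 9.49 and 9.54 in SW480 (4.65 ± 0.18). SPARC, a collagen-binding matricellular protein, read 4.31 and 4.50 against 8.64 and 8.70 (4.26 ± 0.13), and fibronectin FN1 5.91 and 6.25 against 9.64 and 9.49 (3.49 ± 0.21). The proteoglycan BGN (-3.29 ± 0.16) and the matricellular CCN2 (-2.07 ± 0.22) were higher in HT29, as was LUM (-1.63 ± 0.15), which was dim in both lines. Of 15 integrins, ITGA5, the fibronectin receptor subunit (2.23 ± 0.18), and the laminin-binding ITGA7 (2.22 ± 0.15) were higher in SW480. ITGB8 (-4.03 ± 0.16), ITGA1 (-1.85 ± 0.21), ITGB4 of hemidesmosomes (-1.32 ± 0.13) and ITGB1, ITGA3 and ITGAV were higher in HT29, and 7 did not pass.

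Among 24 matrix proteases and inhibitors, 11 were higher in SW480 and 6 in HT29, in all 70.8% beside 46.1% over all genes. The 6 alone are near the 23.5% of all genes that were higher in HT29. Tissue plasminogen activator PLAT read 3.73 and 3.71 in HT29 and 7.49 and 7.83 in SW480 (3.94 ± 0.14), and the metalloproteinase inhibitor TIMP3 6.51 and 6.15 against 8.74 and 8.53 (2.31 ± 0.25). The gelatinase MMP2 was higher in SW480 (2.13 ± 0.19). In the other direction, the kallikrein KLK11 read 10.40 and 10.56 in HT29 and 5.30 and 5.30 in SW480 (-5.18 ± 0.15). Matrilysin MMP7, a protease of epithelial tumour cells, read 9.79 and 9.12 against 5.13 and 5.05 (-4.37 ± 0.20), and the serpin SERPINB5 differed by -2.27 ± 0.19. KLK11 and MMP7 were dim in both SW480 arrays, and PLAT in both HT29 arrays.

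KRT8, KRT18 and KRT19, keratins of simple epithelia, were bright in both lines, while KRT20 was bright in HT29 alone. KRT18 read 13.86 and 13.82 in HT29 and 13.71 and 13.63 in SW480 (-0.17 ± 0.12, adjusted p = 0.261), KRT19 had a gap of -0.01 ± 0.12, and KRT8 one of -0.63 ± 0.12 (adjusted p = 0.00166). Of 14 keratins, 5 were higher in SW480: KRT5, KRT23 (5.15 ± 0.17), KRT13 (1.66 ± 0.22), KRT15 (1.29) and KRT14 (1.05 ± 0.12). KRT23 read 6.56 and 7.13 in HT29 and 12.02 and 11.96 in SW480. KRT14, the usual partner of KRT5 in basal cells, was dim in both lines, at 4.29 and 4.14 against 5.28 and 5.26. KRT20 and KRT8 were the 2 higher in HT29.

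Of 13 measured markers of colon carcinoma lines, 8 were higher in HT29, 1 higher in SW480 and 4 did not pass. EPCAM, KRT8, KRT18, KRT19 and CDH1 were above the array medians in all 4 arrays. LGALS4, KRT20 and CEACAM5 were dim in SW480, and GUCY2C, the guanylin receptor, was dim in both lines, at 3.83 and 3.93 against 3.65 and 4.01. The 1 marker higher in SW480 was the intestinal factor CDX2, at a gap of 1.11. Of the markers of other cell types, 5 of 10 fibroblast, 5 of 8 endothelial, 4 of 8 blood and 2 of 8 neural and muscle genes were dim in both lines. In the same order, 1, 1, 0 and 1 were higher in SW480, and 1, 1, 2 and 1 were higher in HT29. The log2 of the summed fibroblast markers was 9.22 to 9.23 in HT29 and 9.32 to 9.36 in SW480. Summed blood markers were 12.93 to 12.98 in HT29 and 8.41 to 8.45 in SW480, and LYZ alone read 12.85 and 12.90 against 6.15 and 6.15 (-6.72 ± 0.12). The sums were 9.08 to 9.21 against 8.59 to 8.60 for endothelial and 10.07 to 10.19 against 8.97 to 9.05 for neural and muscle markers. Lysozyme is made by secretory cells of the gut as well as by blood cells, and the source of its signal was not tested. PTPRC, the pan-leukocyte gene, was dim in all 4 arrays. MBP (-3.68 ± 0.15) and the surface proteins ENG (-2.17 ± 0.15) and CD14 (-2.57 ± 0.20) were the other marker genes at least 2-fold higher in HT29 together with LUM, and PECAM1 (1.07 ± 0.16) the one at least 2-fold higher in SW480. Of the 5 probe sets of PECAM1, 3 had gaps between -0.48 and -0.38, and the mean of all 5 gave 0.01, which ended the call. When single arrays were left out, the counts in the fibroblast, endothelial and neural and muscle lists lay between 0 and 2 in each direction. The other cell-type markers' part in the results was not tested.

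Transcription factors on the intestinal list differed in both directions, and not all of them are specific to the gut. Of 23 measured intestinal transcription factors, 10 were higher in HT29, 4 higher in SW480 and 9 did not pass, with a median gap of -0.28. GATA6, an endodermal zinc-finger factor, read 9.85 and 10.12 in HT29 and 3.46 and 3.35 in SW480 (-6.58 ± 0.25, adjusted p = 1.57e-08), although its other probe set gave 0.03. HNF4G, a hepatocyte nuclear factor of enterocytes, read 8.88 and 9.01 against 4.21 and 3.45 (-5.12 ± 0.24). MECOM read 8.88 and 8.79 against 4.84 and 5.29 (-3.77 ± 0.17). All were dim in SW480, as was the pioneer factor FOXA1 (-3.60 ± 0.16). CDX2, the caudal homeobox factor of the intestine, went the other way, at 6.36 and 6.93 in HT29 and 7.88 and 7.63 in SW480 (1.11 ± 0.19, adjusted p = 8.62e-04). CDX1 (0.16 ± 0.14) and SOX9 (0.28 ± 0.14) did not pass. PITX1 (2.82 ± 0.20), a hindlimb and pituitary factor, BCL11A (1.58 ± 0.16) and PRDM1 (0.85) were the others higher in SW480.

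Of 37 absorptive-cell brush border and transport genes, 24 did not pass, and in 17 both means were dim. All 10 members at least 2-fold apart were higher in HT29. After LGALS4, they were led by the chloride channel CFTR, at 9.59 and 9.81 in HT29 against 5.04 and 5.09 in SW480 (-4.64 ± 0.14), and the microvillus scaffold USH1C, at 9.96 and 10.75 against 6.30 and 6.37 (-4.02 ± 0.21). The actin bundler VIL1 (-2.60 ± 0.17), the peptidase DPP4 (-3.58 ± 0.21) and the carbonic anhydrase CA2 (-2.86 ± 0.13) were also higher in HT29. ESPN (0.83 ± 0.15), CA1 (0.71 ± 0.22) and PIGR (0.50 ± 0.15) were higher in SW480. CA1 and PIGR each lost their call without HT29 parental replicate 1 and without SW480 vector replicate 2, so that 1 of the 3 remained called in each case.

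Of 32 mucin, trefoil and secretory genes, 16 were higher in HT29 and 3 higher in SW480, with a median gap of -0.53. AGR2 and SPINK1 were joined by AGR3, at 9.60 and 10.15 in HT29 against 3.64 and 3.15 in SW480 (-6.48 ± 0.21), and by REG4, a lectin of enteroendocrine and goblet cells, at 9.51 and 10.14 against 4.2 and 4.53 (-5.46 ± 0.20). The goblet cell factor SPDEF (-2.29 ± 0.13) and the trefoil peptide TFF3 (-2.0 ± 0.24) were higher in HT29 too. MUC2, the main secreted mucin of the colon, had a small gap, at 6.19 and 5.87 against 5.53 and 5.52 (-0.51 ± 0.14, adjusted p = 0.0131). MUC5B, MUC4 and MUC3A were higher in SW480 by 0.63, 0.40 and 0.38, and the first and second of these were dim in both lines. MUC4 and MUC3A each lost their call under 7 of the 12 alternative settings, among them leaving out HT29 parental replicate 1 or either SW480 array.

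In the carcinoembryonic antigen family, a set of glycoproteins shed by colon tumours, 4 of 9 members were higher in HT29 and 1 in SW480. CEACAM6 read 10.00 and 9.14 in HT29 and 5.61 and 5.5 in SW480 (-4.02 ± 0.23), CEACAM1 10.97 and 11.18 against 7.63 and 7.66 (-3.43 ± 0.13). CEACAM5, the carcinoembryonic antigen itself, read 7.68 and 7.15 against 4.62 and 4.76 (-2.72 ± 0.18), with a gap of 0.25 by its other probe set. CEACAM21 was higher in SW480 (2.14 ± 0.16). Without HT29 parental replicate 1, 2 members were higher in SW480.

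Wnt genes were tilted toward SW480: of 32 measured targets and antagonists, 18 were higher there, 9 higher in HT29 and 5 did not pass, with a median gap of 0.77. Beside APCDD1 and WNT5A, the nuclear partner of beta-catenin LEF1 read 5.23 and 4.73 in HT29 and 10.37 and 10.33 in SW480 (5.37 ± 0.16, adjusted p = 3.20e-09). Feedback inhibitors that Wnt signalling induces were among the members higher in SW480. AXIN2 read 9.52 and 9.66 against 11.79 and 11.86 (2.23 ± 0.12), NKD1 6.10 and 6.35 against 9.31 and 9.20 (3.03 ± 0.19), and NOTUM, SP5 and DKK4 had gaps of 1.40, 2.05 and 1.46. The ubiquitin ligases ZNRF3 (-1.14) and RNF43 (-1.06 ± 0.14), which remove Wnt receptors, were higher in HT29 instead, with BMP4 (-1.75 ± 0.19), the co-receptor LRP6 (-1.60 ± 0.17) and the kinase TNIK (-1.38 ± 0.19). MYC was higher in SW480 (0.97 ± 0.15). The tilt describes the list as drawn up. MMP7 (-4.37), CD44 (-1.78) and LGR5 (-1.72), Wnt-linked genes described under other headings here, were not counted in it and were higher in HT29.

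Stem and progenitor markers divided. Of 22 measured, 11 were higher in HT29, 5 higher in SW480 and 6 did not pass. PROM1 read 10.28 and 10.49 in HT29 and 3.56 and 3.74 in SW480. CD24 read 12.78 and 12.88 against 8.83 and 8.83 (-4.0 ± 0.13), and MYB 9.04 and 9.59 against 5.44 and 5.54 (-3.83 ± 0.19). CD44, the hyaluronan receptor, was higher in HT29 by its brightest probe set, at 11.28 and 11.77 against 9.70 and 9.78 (-1.78 ± 0.17), while its 13 probe sets ranged up to a gap of 0.31. LGR5, the crypt base receptor for R-spondins, read 6.18 and 6.79 against 4.60 and 4.93 (-1.72 ± 0.21). In SW480 the tuft cell kinase DCLK1 was the largest, at 9.43 and 9.53 against 4.14 and 4.06 in HT29 (5.38 ± 0.13). The receptor TNFRSF19 (4.05 ± 0.16) and the fetal RNA-binding protein IGF2BP1 (2.13 ± 0.12) followed.

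Growth factor receptors and ligands were mostly higher in HT29: 15 of 27 measured, against 4 higher in SW480, with a median gap of -1.05. PDGFC, a ligand of platelet-derived growth factor receptors, read 9.62 and 9.70 in HT29 and 3.84 and 4.02 in SW480 (-5.73 ± 0.14). Epiregulin EREG, an EGF receptor ligand, read 10.65 and 9.41 against 5.54 and 5.89 (-4.32 ± 0.31), a gap well beyond the spread between the HT29 arrays. Of the receptors, ERBB3 (-3.68 ± 0.21), FGFR3 (-3.42 ± 0.18), FGFR2 (-3.25 ± 0.17), MET (-2.89 ± 0.13) and ERBB2 (-1.59 ± 0.16) were higher in HT29. EGFR read 9.54 and 9.34 in HT29 and 10.49 and 10.49 in SW480 (1.05 ± 0.17, adjusted p = 4.71e-04), with its 9 probe sets between -0.21 and 1.61. FGFR1 (2.24 ± 0.19), FGF18 (1.93 ± 0.12) and PDGFA (0.49) were the others higher in SW480.

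Targets and feedback genes of the ERK kinase cascade showed no common direction, with 10 of 27 higher in SW480 and 12 higher in HT29. The AP-1 factor FOSL1 read 7.91 and 7.23 in HT29 and 10.69 and 10.72 in SW480 (3.14 ± 0.20), and CCND1, cyclin D1, 9.44 and 8.67 against 11.24 and 11.34 (2.23 ± 0.21). The pathway inhibitors SPRY1 (-2.94 ± 0.19), SPRED1 (-2.41 ± 0.18) and the phosphatase DUSP1 (-2.71 ± 0.30) were higher in HT29. DUSP1 read 10.14 and 11.38 in the HT29 arrays, which were thus over 2-fold apart, and its lowest HT29 array was above both SW480 arrays, at 8.06 and 8.05. Other phosphatases of the cascade, DUSP6 (1.27) and DUSP5 (1.67), were higher in SW480.

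In the TGF-beta and BMP pathway, 16 of 34 measured genes were higher in HT29 and 7 higher in SW480. The inhibitory SMAD6 read 9.93 and 10.01 in HT29 and 5.46 and 5.23 in SW480 (-4.63 ± 0.13), and its fellow BMP target ID1 10.90 and 10.36 against 6.71 and 6.27 (-4.14 ± 0.21). The stress-induced ligand GDF15 was also higher in HT29 (-4.15 ± 0.26). The ligand BMP7 was the exception in size, at 3.99 and 4.13 in HT29 against 9.81 and 9.82 in SW480 (5.76 ± 0.15). The TGF-beta binding protein LTBP2 (3.78 ± 0.19) and INHBB (1.20 ± 0.15) were higher in SW480. SMAD4, the shared mediator of both branches, had a gap of -0.86 ± 0.22 (adjusted p = 0.00847), at 5.79 and 5.74 in HT29 and 4.59 and 5.22 in SW480. It lost that call without SW480 vector replicate 1, at a gap of -0.54.

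Among 19 Eph receptors and ephrins, 6 were higher in HT29 and 4 in SW480, which is 52.6% past the threshold beside 46.1% over all genes and is not read as a result about the family. The ephrins EFNA2 (-4.52 ± 0.20), EFNA5 (-3.90 ± 0.17) and EFNA1 (-1.82 ± 0.25) led toward HT29. The receptor EPHA4 (2.38 ± 0.16) and the ephrin EFNB3 (2.11 ± 0.15) led toward SW480. Other probe sets of EFNA2 gave -0.24 and 0.26, and 1 each of EFNA5 and EPHA4 gave -0.03 and -0.17. EFNB1 (0.42 ± 0.15) was called too, but not without HT29 parental replicate 2 (0.29) or SW480 vector replicate 1 (0.24), and without the latter 2 members were higher in SW480. Of 21 Notch genes, 6 were higher in SW480, 2 in HT29 and 13 did not pass. The ligand DLL3 (2.82 ± 0.13) and the repressors HEY2 (2.81 ± 0.24) and HEYL (2.01 ± 0.15) were higher in SW480. The repressor-binding HES6 (-1.50 ± 0.30) and the glycosyltransferase LFNG (-1.34 ± 0.13) were higher in HT29. NOTCH1 (-0.10 ± 0.14) and HES1 (-0.27 ± 0.31) did not pass.

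HOX genes, which record position along the body axis, gave 10 of 28 higher in SW480 and 4 higher in HT29. HOXC10 read 4.44 and 4.48 in HT29 and 8.62 and 8.24 in SW480 (3.97 ± 0.18), and HOXB8 5.48 and 5.77 against 8.84 and 8.56 (3.08 ± 0.21). HOXB2 was higher in SW480 by 2.37 ± 0.15. HOXC4 (-1.42 ± 0.16), HOXB9 (-1.1 ± 0.13) and HOXA2 (-1.01 ± 0.19) were higher in HT29. HOXB9 is the neighbour of HOXB8 in the B cluster, and its other probe set gave a gap of only -0.13. Of 22 cancer-testis antigens, both means were dim in 13. PASD1 read 4.72 and 4.38 in HT29 and 8.90 and 9.04 in SW480 (4.42 ± 0.16), and MAGEA6 8.09 and 7.92 against 3.31 and 3.70 (-4.50 ± 0.17). The list gave 8 higher in SW480, a count that fell to 5 without SW480 vector replicate 1, without replicate 2 and without HT29 parental replicate 2.

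Interferon-induced genes were mostly higher in HT29: 22 of 31 measured, against 4 higher in SW480, with a median gap of -1.31. IFI27 read 12.05 and 12.18 in HT29 and 5.70 and 5.32 in SW480 (-6.61 ± 0.17, adjusted p = 1.28e-09). SAMD9 read 8.91 and 8.29 against 4.46 and 4.29 (-4.23 ± 0.21), and the guanylate-binding protein GBP2 8.26 and 9.27 against 5.01 and 5.47 (-3.53 ± 0.28). The antiviral IFIT1 (-3.52 ± 0.19) and OAS1 (-2.47 ± 0.19) differed likewise, and ISG15 (-0.87 ± 0.12) and MX1 (-0.66 ± 0.12) by less. Higher in SW480 were the membrane restriction factors IFITM2 (1.82 ± 0.15), IFITM3 (1.49 ± 0.17) and IFITM1 (0.88 ± 0.27), with OAS2 (0.60). IFITM1 lost its call without HT29 parental replicate 1 and without either SW480 array.

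Antigen presentation ran the other way, with 12 of 23 genes higher in SW480 and 4 higher in HT29. HLA-DRA, a class II chain, read 4.79 and 4.70 in HT29 and 8.16 and 8.03 in SW480 (3.35 ± 0.20, adjusted p = 3.77e-07), and its chaperone CD74 7.44 and 8.25 against 10.30 and 9.97 (2.29 ± 0.23). The immunoproteasome subunit PSMB9 was higher in SW480 by 2.10 ± 0.12. ERAP2, a peptidase that trims class I peptides, read 10.25 and 10.02 in HT29 and 5.41 and 5.5 in SW480 (-4.68 ± 0.13). The peptide editors TAPBP (-1.26 ± 0.13) and HLA-DMA (-1.13 ± 0.16) were higher in HT29, TAPBP with another probe set at 0.93.

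Of 31 chemokines and interleukins, 10 were higher in SW480 and 8 higher in HT29, in all 58.1% beside 46.1% over all genes. IL32 read 5.67 and 5.86 in HT29 and 9.24 and 9.16 in SW480 (3.44 ± 0.15), and CXCL14 (1.49 ± 0.24) and TNFAIP3 (1.40 ± 0.15) were also higher there. The prostaglandin synthase PTGS2 (COX-2) read 7.99 and 6.92 against 3.97 and 3.77 (-3.59 ± 0.28), and IL18 (-2.46 ± 0.20) and IL15 (-2.43 ± 0.14) were higher in HT29. CXCL8, the neutrophil chemokine interleukin-8, did not pass (-0.40 ± 0.28, adjusted p = 0.267). Its HT29 arrays, at 6.74 and 5.66, lay on both sides of the SW480 arrays, at 5.75 and 5.85, and without HT29 parental replicate 1 the gap was 0.14.

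Enzymes of aldehyde and drug metabolism were mostly higher in HT29, 19 of 37 against 6 in SW480, with a median gap of -0.52. After ALDH1A1 and AKR1C3, the largest was the aldo-keto reductase AKR1B10, at 9.98 and 10.13 in HT29 and 3.76 and 4.30 in SW480 (-6.03 ± 0.17). The carbonyl reductase CBR3 (3.12 ± 0.12), thymidylate synthase TYMS (1.43 ± 0.17), the target of fluorouracil, and ALDH1B1 (1.33 ± 0.12) were higher in SW480. Probes of near-identical enzymes such as AKR1C1 (-4.34) and AKR1C2 (-3.19) were not checked for cross-hybridisation. Of 15 ABC transporters, 7 were higher in HT29 and 3 in SW480. ABCG2, the breast cancer resistance protein, read 10.00 and 10.07 against 5.33 and 5.43 (-4.66 ± 0.14), and ABCC3 11.40 and 11.39 against 7.16 and 7.25 (-4.19 ± 0.21). ABCB1, the gene of P-glycoprotein, was dim in HT29 at 4.01 and 3.91 and higher in SW480 at 6.94 and 7.05 (3.03 ± 0.16).

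Of 31 hypoxia and glycolysis genes, 13 were higher in SW480, 7 higher in HT29 and 11 did not pass. The neuronal-type glucose transporter SLC2A3 read 6.50 and 6.26 in HT29 and 11.19 and 11.16 in SW480 (4.80 ± 0.15), and EPAS1, the gene of HIF-2 alpha, 9.55 and 9.69 against 11.49 and 11.57 (1.91 ± 0.13). VEGFA, the angiogenic growth factor, read 11.15 and 10.93 against 8.11 and 7.89 (-3.04 ± 0.15), and PDK1 was higher in HT29 too (-1.66 ± 0.16). ALDOC (-1.34 ± 0.30) read 7.65 and 8.87 in the HT29 arrays. The count higher in SW480 fell to 7 without SW480 vector replicate 1 and to 8 without replicate 2.

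Cell cycle genes gave 15 of 31 higher in SW480 and 4 higher in HT29, with a median gap of 0.46. Cyclin D2, CCND2, read 3.65 and 4.14 in HT29 and 9.30 and 9.20 in SW480 (5.36 ± 0.16), and the nucleotide reductase subunit RRM2 11.27 and 10.86 against 13.28 and 13.26 (2.20 ± 0.15). MKI67, the proliferation antigen Ki-67, had a gap of 0.44 ± 0.16 (adjusted p = 0.0459), and CDK1 did not pass (0.03 ± 0.16). The inhibitors CDKN2A (-1.24 ± 0.18) and CDKN1B (-0.73 ± 0.14), CCNB2 (-0.48) and RB1 (-0.56 ± 0.14) were higher in HT29. RB1 reversed to 0.04 when its probe sets were averaged, and without SW480 vector replicate 2 the count higher in HT29 was 2.

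Of 17 mismatch and break repair genes, 6 were higher in HT29 and 3 in SW480. MGMT, which removes alkyl groups from guanine, read 8.41 and 8.46 in HT29 and 5.70 and 6.20 in SW480 (-2.49 ± 0.17), and XRCC4 of end joining differed by -1.49 ± 0.16. PARP1 (0.84 ± 0.13), EXO1 (0.73 ± 0.19) and MSH6 (0.61 ± 0.12) were higher in SW480, a count of 3 that was 5 without HT29 parental replicate 1. Of 27 apoptosis regulators, 11 were higher in HT29 and 6 in SW480. BIK, a killer protein of the BCL2 family, read 7.59 and 7.82 in HT29 and 11.04 and 11.04 in SW480 (3.33 ± 0.16). The death receptors TNFRSF10A (1.62 ± 0.19) and FAS (1.22 ± 0.13) were higher in SW480, while the TRAIL ligand TNFSF10 (-1.59 ± 0.31), BMF (-1.69 ± 0.27) and CASP8 (-1.12 ± 0.15) were higher in HT29. Without SW480 vector replicate 2, 7 were higher in HT29.

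Of 22 S100 and annexin genes, whose products bind calcium, 10 were higher in HT29 and 6 in SW480. S100P read 13.31 and 12.43 in HT29 and 5.89 and 5.73 in SW480. ANXA10 (-5.39 ± 0.18) and ANXA13 (-4.63 ± 0.23), annexins of stomach and gut, were higher in HT29. ANXA6 (4.14 ± 0.14), S100A3 (3.80 ± 0.12) and S100A2 (3.44 ± 0.22) were higher in SW480, and S100A4, bright in all 4 arrays, had a gap of 0.01 ± 0.12. The bar plot sets the share of each list beside that of all genes, which by direction was 22.6% toward SW480 and 23.5% toward HT29. A list's count in 1 direction can lie near that share. In either direction, 60.6% of matrix genes, 60.9% of intestinal factors, 63.0% of apoptosis regulators and 64.5% of hypoxia genes passed. For stem markers and for S100 and annexin genes it was 72.7% each. Of the lists named above, brush border genes had 35.1% of members past the threshold and Notch genes 38.1%, beside 46.1% of all genes. EMT transcription factors, HOX genes and keratins (50% each), repair genes (52.9%), integrins (53.3%), cancer-testis antigens (54.5%) and the carcinoembryonic antigen family (55.6%) lay within 10 percentage points of it, and these counts are given as descriptions of single genes.

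**Figure D3:**
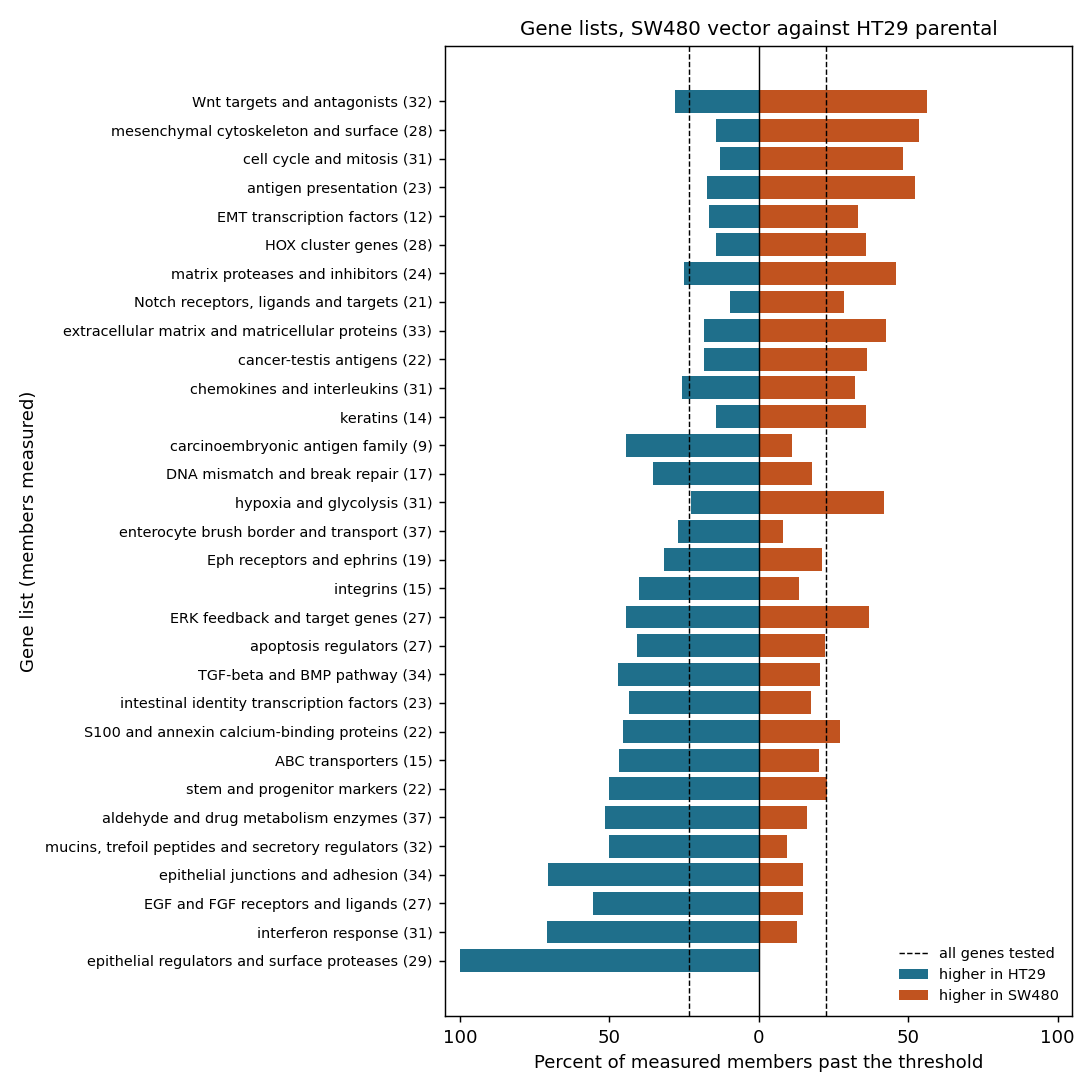
Percent of measured members past the threshold that were higher in HT29 (blue, to the left) and higher in SW480 (orange, to the right) for the gene lists other than markers of other cell types and of colon lines, ordered by median gap; dashed lines mark the shares over all genes tested, 23.5% and 22.6%. Every measured epithelial regulator lies to the left (29 of 29), and Wnt genes (18 of 32) and mesenchymal genes (15 of 28) reach furthest to the right.

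The gaps were then read in the second pair of groups, SW480 cells labelled Snail against HT29 spheres, which shares no array with the first but does share each gene's estimate of spread. In that pair 8278 genes (41.9%) were called, 4376 (22.1%) higher in SW480 and 3902 (19.7%) higher in HT29. Of the 9116 genes called at baseline, 5035 were called there with the same sign, 719 with the opposite sign and 3362 were not past the threshold, which is 25.5% and 3.64% of all genes for the first and second of these. The larger the baseline gap, the more often it recurred. Of genes at least 2-fold higher in SW480 at baseline 1201 of 1448 (82.9%) were called with the same sign, and of those at least 2-fold higher in HT29 1634 of 2287 (71.4%). Of genes with a gap of at least 4 log2, 83 of 85 higher in SW480 and 123 of 126 higher in HT29 recurred, and 0 reversed. Among called genes under 2-fold, 2200 of 5381 (40.9%) recurred and 537 reversed. Across the 19775 genes the gaps of the pairs correlated at 0.719. This describes these arrays only, because genes do not vary independently of each other.

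The genes with large gaps in both pairs include those named first above. APCDD1 had a gap of 8.36 in the second pair, KRT5 7.26, TMEM47 7.0, BEX3 6.96 and WNT5A 6.75, and toward HT29 ALDH1A1 had -9.18, KRT20 -8.79, AKR1C3 -8.26, LGALS4 -7.99 and AGR2 -7.85. For TSPAN8 the pairs gave -7.25 and -7.23, and for RAB25 -6.73 and -6.60. Epithelial regulators gave 26 of 29 higher in HT29 and 1 higher in SW480 in the second pair, interferon genes 25 and 5 of 31, and Wnt genes 7 and 18 of 32. Other lists changed balance. Antigen presentation genes, 12 higher in SW480 and 4 in HT29 at baseline, gave 3 and 12 in the second pair, and the difference between the gaps itself passed for 15 of 23 members. HLA-DRA is an example, with 3.35 at baseline and 0.36 in the second pair (difference 2.99 ± 0.28, adjusted p = 6.03e-05 in limma). Hypoxia and glycolysis genes went from 13 and 7 to 3 and 18 (difference past the threshold in 22 of 31), and cell cycle genes from 15 and 4 to 25 and 3 (24 of 31). Stem and progenitor markers went from 5 and 11 to 8 and 5 (12 of 22). Repair genes went from 3 and 6 to 13 and 1 (16 of 17). HOX genes went from 10 and 4 to 16 and 0, but the difference passed for 8 of 28. That is near the 27.5% over all genes and is not read as a result about the list. MYB went from -3.83 to 0.57 and ITGA1 from -1.85 to 1.67, each called in both pairs. LGR5 went from -1.72 to -0.15 and was not called in the second pair. Medium, growth form and construct differ in that pair, and their parts cannot be told apart. Over all genes the difference passed for 5446 (27.5%).

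**Figure D4:**
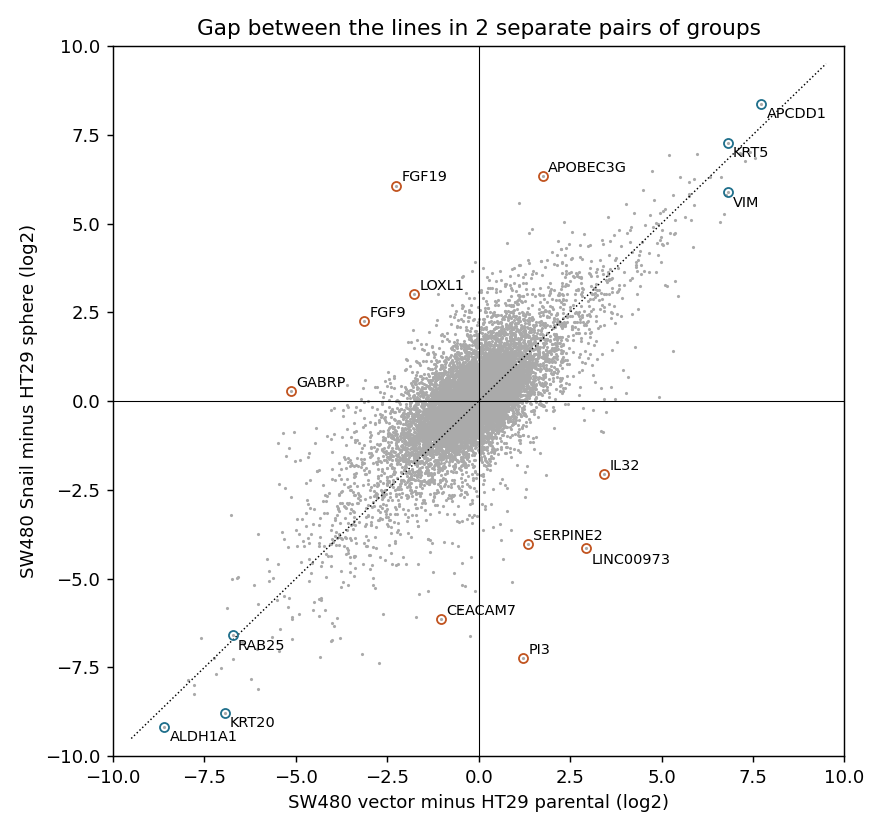
Gap between the lines for 19775 genes in SW480 vector against HT29 parental arrays (horizontal, log2) and in arrays labelled SW480 Snail against HT29 sphere arrays (vertical, log2); the dotted line marks equal gaps, blue circles genes with large gaps in both pairs and orange circles genes with the largest difference between the pairs. APCDD1 (7.72 and 8.36) and ALDH1A1 (-8.59 and -9.18) lie near the dotted line, and FGF19 (-2.25 and 6.07) and PI3 (1.22 and -7.23) far from it.

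Called genes were not spread evenly over chromosomes by direction, a count made after the other results were seen and given without a test. Over all called genes 49.1% were higher in SW480. On chromosome 21 the share was 79.5% (93 higher in SW480 and 24 higher in HT29), on chromosome 14 68.8% and on chromosome 17 64.7%. On chromosome 15 it was 21.4% (66 and 243), on chromosome 18 26.8% and on chromosome 4 29.5%. In the second pair of groups the shares were 74.0% on chromosome 21, 75.7% on chromosome 14, 32.7% on chromosome 15, 39.5% on chromosome 18 and 41.4% on chromosome 4, and 18 of 22 autosomes lay on the same side of 50%. Among genes above every array median in both lines, the median gap was 0.42 on chromosome 21 (122 genes), -0.51 on chromosome 15 (380 genes), -0.49 on chromosome 18 (151 genes) and -0.42 on chromosome 4 (361 genes). It was only 0.16 on chromosome 14 and 0.17 on chromosome 17. In the second pair the medians of such genes were 0.49 on chromosome 21, -0.27 on chromosome 15, -0.075 on chromosome 18 and -0.088 on chromosome 4. GATA6, DSC2 and SMAD4, all higher in HT29, lie on chromosome 18, and so do APCDD1 and TUBB6, the 2 genes with the largest gaps toward SW480. No measure of DNA copy number was used here.

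**Figure D5:**
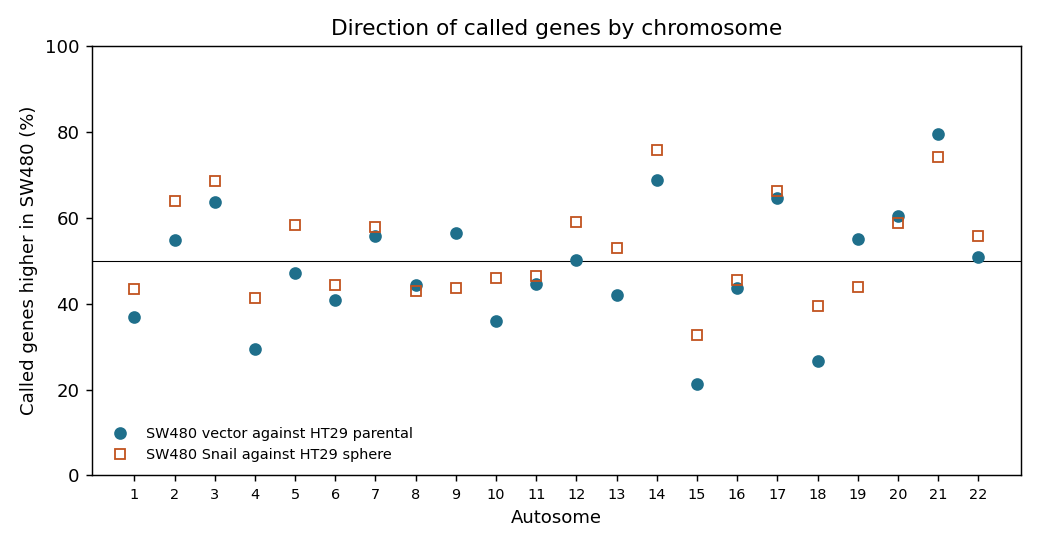
Percent of called genes on each autosome that were higher in SW480, for SW480 vector against HT29 parental arrays (filled circles) and arrays labelled SW480 Snail against HT29 sphere arrays (open squares); the line marks 50%. Chromosome 21 (79.5% and 74.0%) is the highest in the first comparison and chromosome 15 (21.4% and 32.7%) the lowest in both.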

How the data were processed

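Expression was measured on 8 Affymetrix arrays, 2 for each of 4 groups, which were taken from the sample titles with their replicate numbers. Each deposited value is a log2 expression level. The authors used RMA, per the submitters' processing notes, a method that subtracts background, puts arrays on a common distribution and combines the probes of a set, which compresses low values. The sources used here give neither its version nor its probe definitions. No further scaling was applied.

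Probe sets were named through the platform's annotation in GEO: of 54675, 62 were Affymetrix controls, 41091 named 1 gene, 1801 several and 11721 none. Entrez identifiers of 41037 matched the RefSeq table of GRCh38.p14, which changed 0 symbols. Group means were fitted to all 8 arrays with limma 3.58.1 in R 4.3.3, so that 4 residual and 6.10 prior degrees of freedom gave the spread. Tests were two-sided, with Benjamini-Hochberg adjustment over 19775 genes and a threshold of 0.05. The fit was tested on simulated data. The contrasts were SW480 vector minus HT29 parental, SW480 Snail minus HT29 sphere, and their difference.

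The 36 gene lists (921 entries, 834 measured, 805 distinct genes) were described by counts and medians. The comparison, the lists and the rule for naming genes were chosen with earlier results of these data known. The rule named the 12 largest gaps each way among called genes at least 2-fold apart with no overlap of arrays, the 8 each way with the largest smaller gap of both pairs, the 5 each way with the largest difference between pairs, the 3 largest called members each way per list, and a few markers in every case. Other members named as examples were chosen after their values were seen. Promoters were the 250 bases before the annotated start. Alternatives were the 4 arrays alone, quantile normalisation, median centring, leaving out the dimmest 40% of genes, the mean of a gene's probe sets, array weights, an intensity trend, a replicate block and leaving out each array. Deviations of same-numbered arrays correlated at -0.057 to 0.061, so the numbers were not taken to pair arrays. Levels of genes that show a person's sex are not reported.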

Additional observations from a re-analysis of the deposited data

Results flagged for a closer look

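Among genes called at baseline, the 5 in each direction whose gap between SW480 and HT29 differed most between the 2 pairs of groups are given here, by limma's test of the difference (adjusted p between 3.87e-08 and 2.10e-05). The differences are baseline gap minus second gap, on the log2 scale, and the causes were not tested.

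In 5 of them the baseline gap leaned more toward HT29. FGF19, a hormone that restrains bile acid synthesis, was higher in HT29 at baseline (-2.25) and higher in SW480 in the second pair (6.07), a difference of -8.32. GABRP, a GABA receptor subunit, went from -5.13 to 0.27, a difference of -5.40. FGF9 went from -3.13 to 2.26 (-5.38), and LOXL1, a lysyl oxidase, from -1.78 to 3.01 (-4.79). APOBEC3G, a cytidine deaminase active against retroviruses, was higher in SW480 in both pairs, by 1.75 and 6.33 (-4.58).

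In the other 5 it leaned more toward SW480. PI3, the elastase inhibitor elafin, had gaps of 1.22 and -7.23, a difference of 8.45. LINC00973, a long noncoding RNA, had 2.95 and -4.13 (7.07), and its HT29 parental arrays, at 6.52 and 4.86, were over 2-fold apart. IL32 had 3.44 and -2.06 (5.5), and SERPINE2, a protease inhibitor, 1.35 and -4.02 (5.37). CEACAM7 was higher in HT29 in both pairs, by -1.03 and -6.13 (5.10).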

How the results depend on the processing

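Over the 12 alternative settings, the count of genes called between the lines stayed within 1.5 times the 9116 reported: 7296 to 8860 when 1 array was left out and 7712 to 9252 otherwise. Genes higher in SW480 ranged from 3444 to 4320 and from 3408 to 4819, and genes higher in HT29 from 3852 to 4540 and from 4165 to 4774. Of 209 named genes, 191 kept their call or lack of one and their direction wherever they were tested, and 24 were not tested once the dimmest 40% of genes were left out. For SW480 vector minus HT29 parental the replicate block, which takes same-numbered arrays as pairs, called 8970 genes and changed no call of a named gene. The mean of all probe sets reversed CXCL8 (0.028), PIGR (-0.12), RB1 (0.044) and TCF3 (0.10), and leaving out HT29 parental replicate 1 reversed CXCL8 (0.14), which became called without replicate 2 (-0.94). COL1A1 (0.27), PECAM1 (0.01) and TAPBP (-0.09) lost their calls under that mean, EXO1 (0.67) without SW480 vector replicate 1, and MYH7 under 8 settings. Per setting, between 0 and 10 of 72 list counts moved by more than 1.5 times, the most when dim genes were left out. Of 136 named genes with several probe sets, 34 had probe sets with gaps of both signs, and the text does not mark all of them. Some gaps were larger by another probe set, as for SLC2A3 (8.04), LYZ (-8.31), LGR5 (-4.35) and ZEB1 (3.58). The cause of these changes was not tested. With 2 arrays a group and no detection measure, folds against dim values are limited.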
